A study of Mus musculus with 2 samples.

Results

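The nuclear-encoded subunit genes of the oxidative phosphorylation system were described in CD45+ immune cells of mouse skin. The members were all genes whose symbol begins with Nduf followed by a, b, c, s or v and a digit, the genes Sdha to Sdhd, and those beginning with Uqcr, with Cox followed by a digit from 4 to 8, or with Atp5, that had at least 50 unique molecular identifiers (UMIs, each standing for 1 captured RNA molecule) in the whole matrix. Of 32285 genes, 85 symbols matched and 80 had the minimum count. Of the 5 left out, Cox4i2 had 47 UMIs, Ndufa4l2 had 9, Cox8b had 1, and Cox7b2 and Cox8c had 0. The least abundant members were Cox7a1 with 267 UMIs, Cox6a2 with 321 and Cox6b2 with 564. The 80 genes comprised 36 of complex I, 4 of complex II, 8 of complex III, 15 of complex IV, in which Ndufa4 was counted, and 17 of complex V. Cyc1, cytochrome c1 of complex III, did not match these symbols and was counted in a list of carriers with cytochrome c described below.

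The study compared skin on day 2 after challenge with diphenylcyclopropenone (DPCP), a contact allergen that elicits contact hypersensitivity, with control skin of day 0. Cells sorted for CD45, the surface protein common to white blood cells, were labelled with 1 multiplexing tag per condition and run as 1 pool on a 3′ droplet platform, and the strain, sex and number of mice are not given in the sources used here. After removal of barcodes with under 200 genes or over 10% mitochondrial UMIs, 4970 cells of control skin, with a median depth of 8803 UMIs, and 7588 cells of DPCP skin, with one of 4728.5 UMIs, remained. With 1 tagged sample per condition there were no biological replicates, so no test between conditions was made, and all intervals are exact 95% intervals that cover counting error only. The mitochondrial filter removed 20.8% of control and 3.53% of DPCP barcodes. At least 80% of tag counts came from the tag of the cell's own condition in 100% of kept control and 62.3% of kept DPCP cells.

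Oxidative phosphorylation takes place in the inner mitochondrial membrane. Complex I and complex II take electrons from NADH and succinate, complex III passes them to cytochrome c, complex IV reduces oxygen, and the proton gradient built on the way drives ATP synthesis by complex V. A few subunits are encoded by mitochondrial DNA and the remainder by nuclear genes, whose products are imported. Neutrophils are known to carry few mitochondria and to draw mainly on glycolysis, whereas macrophages, dendritic cells and T cells shift between respiration and glycolysis with activation.

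The neutrophil, macrophage, dendritic cell and T cell classes were set by marker gates with no subunit gene in them. A cell was placed in a class when at least 3 of its markers had a UMI and the scaled marker score was at least 2 times that of every other class. The neutrophil gate used Csf3r, Cxcr2, Retnlg, Il1r2, Hdc, G0s2, Trem1 and Mmp9, and complement genes, Mrc1, Adgre1 and Csf1r were among the macrophage markers, Flt3 and Zbtb46 among those of dendritic cells and Cd3d, Cd3e and Trac among those of T cells. The gates held 102 control and 3660 DPCP neutrophils, 310 and 316 macrophages, 296 and 191 dendritic cells, and 238 and 294 T cells. A rival gate on monocyte markers, which took 1435 control and 1033 DPCP cells, and the 2589 and 2094 cells outside every gate were not compared with the 4 gated classes. The summed S100a8 and S100a9 level, which marks neutrophils, was 69479 CPM (counts scaled to 1000000 UMIs of the class) in neutrophils of control skin and 94623 CPM in those of DPCP skin, against 477 to 7137 CPM in the other classes, where the highest value was in DPCP T cells. Cells with more than 19 UMIs of S100a8 and S100a9 made up 11.7% of DPCP macrophages, 16.2% of DPCP dendritic cells and 20.7% of DPCP T cells, and none of these classes in control. Median UMIs per cell differed widely, from 2851.5 in control and 4068.5 in DPCP neutrophils to 10418 in DPCP macrophages and 14484 in DPCP dendritic cells.

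The promoter windows of 2 members are shown because these genes lay at opposite ends of the neutrophil to macrophage comparison below. Ndufa5, a subunit of the complex I arm that extends into the matrix, had the lowest ratio, and Cox8a, the ubiquitous form of a small complex IV subunit, the highest. The windows run from 250 bases before to 50 bases after the RefSeq gene start on GRCm38.p6. Where a gene had more than 1 window, that with the lowest coordinate was used for display and for the median ratios below. The gene annotation places the 5′ end of Ndufa5 at base 24528013, upstream of its window shown here. The Ndufa5 window is chr6:24527477-24527776 on the minus strand and the Cox8a window is chr19:7217567-7217866 on the minus strand. Both are written 5′ to 3′ with matches to the motifs described next in capitals.
Ndufa5: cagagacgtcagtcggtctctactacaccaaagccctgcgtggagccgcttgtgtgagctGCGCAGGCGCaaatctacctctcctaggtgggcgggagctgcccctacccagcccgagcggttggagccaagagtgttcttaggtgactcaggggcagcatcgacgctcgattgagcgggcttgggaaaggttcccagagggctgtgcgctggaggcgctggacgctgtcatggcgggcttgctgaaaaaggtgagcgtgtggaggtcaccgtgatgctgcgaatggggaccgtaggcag
Cox8a: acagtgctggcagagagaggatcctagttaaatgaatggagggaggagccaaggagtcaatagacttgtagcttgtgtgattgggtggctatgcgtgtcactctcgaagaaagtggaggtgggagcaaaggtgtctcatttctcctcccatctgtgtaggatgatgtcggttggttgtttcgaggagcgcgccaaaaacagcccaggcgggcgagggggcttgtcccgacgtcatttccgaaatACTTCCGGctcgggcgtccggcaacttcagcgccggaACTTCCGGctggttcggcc
The Ndufa5 window held 1 match to the motif of nuclear respiratory factor 1, which reads GCGCA, any base and GCGC, and the Cox8a window held 2 matches to CCGGAAGT, an ETS family motif, on the opposite strand. A promoter window was found for 65 of the 80 members, in 70 windows. Searched on both strands, the nuclear respiratory factor 1 motif stood in 18 of the 70 windows (25.7%), beside 4.60% of all 32851 windows in the RefSeq table. AAGATGGC, the motif of YY1, stood in 9 (12.9%, beside 2.75%), and CCGGAAGT in 5 (7.14%, beside 3.89%). At least 1 of these motifs stood in 30 of the 70 (42.9%, beside 10.4% of all windows). Among members with a window and enough UMIs, the median log2 ratio of neutrophils to macrophages in DPCP skin was −1.54 for the 29 with a motif and −1.48 for the 34 without one. A match describes letters in the window and is not evidence of binding.

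Subunit transcripts formed a smaller part of the RNA in neutrophils than in the other gated classes, in both conditions. In DPCP skin the 80 genes together took 0.509% (0.506 to 0.512) of neutrophil UMIs, 1.26% (1.25 to 1.27) of macrophage UMIs, 1.37% (1.35 to 1.38) of dendritic cell UMIs and 1.14% (1.12 to 1.15) of T cell UMIs. In control skin the shares were 0.739% (0.709 to 0.771), 1.13% (1.11 to 1.14), 1.38% (1.36 to 1.39) and 1.17% (1.15 to 1.18) in the same order. The mean number of subunit UMIs per cell was 25.3 in DPCP neutrophils, against 143.9 in macrophages, 216.6 in dendritic cells and 104.3 in T cells. When every cell was thinned to 1000 UMIs, leaving out 27 DPCP and 2 control neutrophils and 2 macrophages of each condition as too shallow, the median was 5 subunit UMIs in DPCP neutrophils (quartiles 3 and 7), 11 in macrophages, 13 in dendritic cells and 9 in T cells. In control skin the medians lay closer for neutrophils and macrophages, at 7 and 8, with 13 in dendritic cells and 11 in T cells. Single cells overlapped, since the lowest 10% of DPCP macrophages had 4 or fewer. Of the 80 genes, 79 had their lowest level of the 4 classes in neutrophils in DPCP skin, beside 51.2% of the 14440 genes with at least 50 UMIs in the whole matrix, and 69 did in control skin, beside 53.9%.

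**Figure D1:**
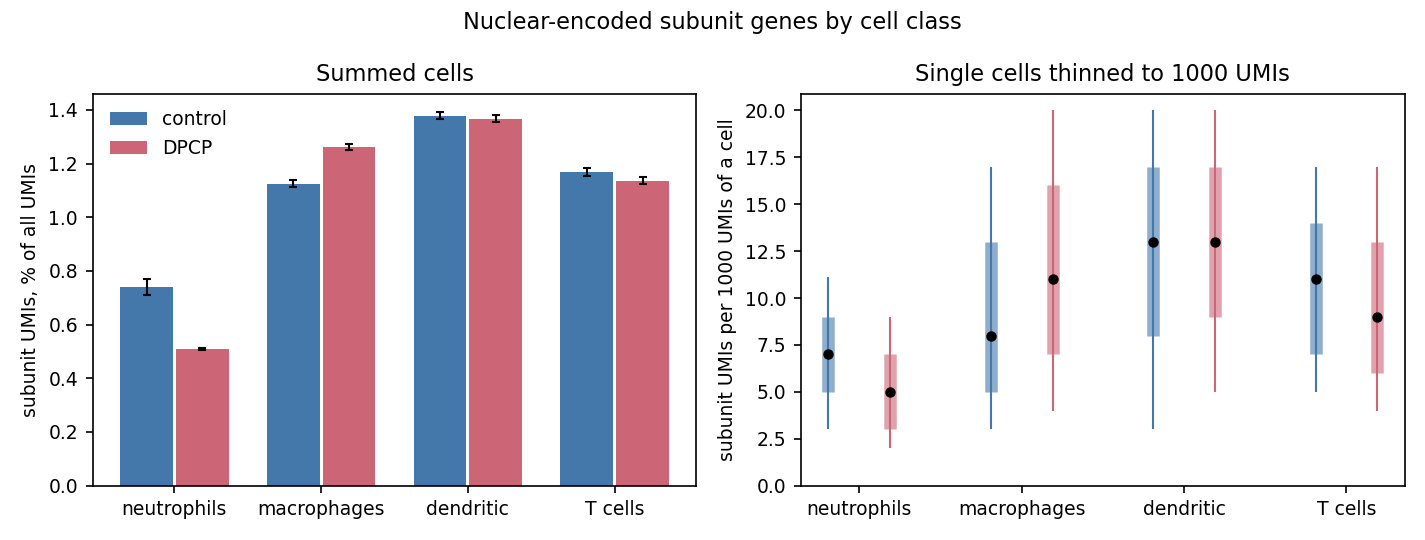
Left, the share of all UMIs (percent) taken by the 80 subunit genes in each gated class, control and DPCP, as bars with exact 95% intervals. Right, subunit UMIs per cell after thinning each cell to 1000 UMIs, with the median as a point, quartiles as a thick bar and the 10th and 90th percentiles as a line. Neutrophils are lowest in both panels, and the neutrophil and macrophage medians are 5 and 11 in DPCP and 7 and 8 in control.

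Against DPCP macrophages, 73 of the 77 subunit genes with at least 50 summed UMIs were at least 1.5-fold lower in DPCP neutrophils, and none was as much higher. Over all 10718 genes tested in that comparison, 54.1% were at least 1.5-fold lower and 20.9% higher. The median log2 ratio was −1.51 for subunit genes and −0.73 for all genes. The ratio of summed levels was 0.403 (0.399 to 0.408). Against dendritic cells 72 of 77 genes were lower, beside 47.7% of all genes, with a summed ratio of 0.372. Against T cells 69 of 77 were lower, beside 57.5% of all genes, with a summed ratio of 0.448. In control skin, where the neutrophils held 294836 UMIs in all, 49 of 77 were lower than in macrophages, beside 51.9% of all genes, 59 of 78 lower than in dendritic cells, beside 50.4%, and 54 of 77 lower than in T cells, beside 55.4%. The control counts thus lay nearer the background than the DPCP counts.

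These ratios moved with scaling and with depth. In neutrophils a few genes take much of the RNA: the 20 most abundant genes held 21.6% of DPCP neutrophil UMIs and 13.9% of DPCP macrophage UMIs. Under TMM scaling (trimmed mean of M-values), which centres the bulk of genes, the log2 ratios of neutrophils to macrophages, dendritic cells and T cells in DPCP skin were shifted by 0.86, 0.70 and 1.08. The summed ratios became 0.730, 0.605 and 0.943, and 42, 51 and 25 of 77 genes were past the 1.5-fold limit, beside 32.7%, 31.3% and 31.7% of all genes, so the T cell count, 32.5% of the subunit genes, lay near its background. In cells of 3000 to 10000 UMIs, a window chosen after seeing the data, the DPCP summed ratios were 0.448, 0.422 and 0.501.

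The share of subunit UMIs was higher in macrophages and dendritic cells with more UMIs, and in DPCP neutrophils it was not. In control macrophages it was 0.658% in the 70 cells of 2000 to under 5000 UMIs and 1.25% in the 83 cells of 10000 to under 20000 UMIs. DPCP neutrophils gave 0.536% in the 2159 cells of the lower bin and 0.473% in the 248 cells of the higher bin. The 5 control neutrophils of 5000 to under 10000 UMIs gave 1.09%, above the 0.703% of the lower bin. T cells gave 1.08% in the lower and 1.14% in the higher bin in control, and 0.988% and 1.09% in DPCP. The 12 DPCP T cells of 20000 UMIs and over gave 1.81%. In the lower bin the 69 control neutrophils, at 0.703%, lay above the 70 control macrophages. The summed ratio over all subunit genes, which compares the same shares, was 1.07. Of the 20 genes that kept 50 UMIs in that bin, 1 was at least 1.5-fold lower in control neutrophils and 7 were higher. The values for all genes were 34.0% lower and 35.2% higher. The control difference from macrophages was thus not seen at matched depth. The 46 control dendritic cells of that bin gave 0.776% (0.734 to 0.820), an interval that overlapped that of the control neutrophils (0.668 to 0.739). In the same bin 58 control T cells gave 1.08%, and in DPCP skin 36 macrophages gave 0.898% and 53 T cells 0.988%, each above the neutrophil value of its condition.

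**Figure D2:**
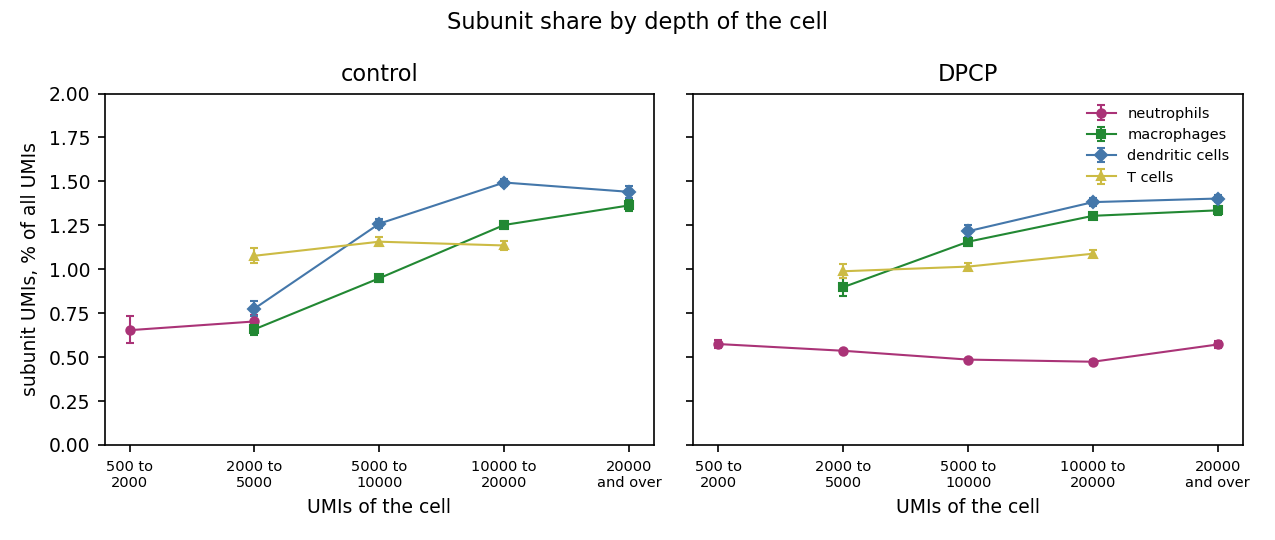
Share of all UMIs (percent) taken by the 80 subunit genes against the UMIs of the cell, in bins with at least 20 cells, for each gated class in control (left) and DPCP (right), with exact 95% intervals. DPCP neutrophils stay near 0.5% in every bin, control macrophages go from 0.658% to 1.36%, and the control neutrophil and macrophage points lie close together between 2000 and 5000 UMIs.

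Transcripts typical of other classes were measurable in the neutrophil class. Cd74, H2-Aa, H2-Ab1 and H2-Eb1, genes of antigen presentation, stood in DPCP neutrophils at 6.23% to 10.2% of the macrophage level, Apoe at 3.64%, and Pf4, a macrophage marker, at 0.782%. The 4 antigen presentation genes summed to 2269 CPM in control and 1359 CPM in DPCP neutrophils, against 23767 and 17560.5 CPM in macrophages, and the macrophage markers Apoe, Pf4 and Selenop to 315 and 152 CPM, against 7777 and 4237 CPM. Whether these transcripts, or a part of the neutrophil subunit UMIs, came from other cells was not tested. Without the cells rich in S100a8 and S100a9, the DPCP summed ratios to macrophages, dendritic cells and T cells were 0.392, 0.367 and 0.426.

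All 36 complex I genes were at least 1.5-fold lower in DPCP neutrophils than in DPCP macrophages, and complex I had the lowest summed ratio of the 5 complexes, 0.354 (0.347 to 0.362). Ndufa5 was at 5.88 CPM in neutrophils and 75.2 CPM in macrophages, a ratio of 0.0782 (0.0619 to 0.0982). Its level in T cells, 70.4 CPM, was near that of macrophages, and its level in dendritic cells was lower, at 49.2 CPM. Ndufc2, a subunit of the membrane arm, followed with 13.1 against 134.0 CPM (ratio 0.0976), and Ndufa11, also of the membrane arm, with 10.1 against 99.05 CPM (0.102). The same direction held in control skin for Ndufa5, at 10.2 against 59.7 CPM, though on 3 neutrophil UMIs. Ndufb1-ps, the complex I entry with the most UMIs, was at 194 against 393 CPM (0.492). Alone among the members, it is listed in the gene annotation as a long non-coding RNA and not as protein-coding.

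Complex II, succinate dehydrogenase, which also belongs to the tricarboxylic acid cycle, was the complex with the smallest difference. Its summed ratio to macrophages was 0.492 (0.458 to 0.528). Sdha, the flavoprotein, was at 60.7 CPM in DPCP neutrophils against 95.7 in macrophages, 75.3 in dendritic cells and 105.2 in T cells. Sdhd, a membrane anchor, was at 38.4 CPM in DPCP neutrophils against 59.6, 53.5 and 47.8 in the same order, while Sdhc, the other anchor, was at 19.5 against 69.9 in macrophages. The pair of anchors thus differed, with ratios to macrophages of 0.643 (0.551 to 0.753) for Sdhd and 0.278 (0.236 to 0.328) for Sdhc.

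In complex III, 7 of 8 genes were at least 1.5-fold lower in DPCP neutrophils than in macrophages. Uqcrh, the hinge protein and the complex III gene with the most UMIs, was the exception at 177 against 243 CPM (0.731). Uqcrb, the ubiquinone-binding protein, was at 28.1 against 178.9 CPM (0.157). The core proteins and the Rieske iron-sulfur protein (Uqcrc1, Uqcrc2 and Uqcrfs1) had a summed ratio of 0.326 (0.295 to 0.360), below the 0.430 (0.413 to 0.448) of the 5 small subunits.

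Complex IV held the highest single ratio. Cox8a was at 256 CPM in DPCP neutrophils and 283 in macrophages, a ratio of 0.906 (0.846 to 0.970), and at 340 in dendritic cells and 323 in T cells. Under TMM scaling the Cox8a ratio to macrophages turned to 1.64, and in cells of 3000 to 10000 UMIs it was 1.11. Cox7a2l, which bridges complexes III and IV in respiratory supercomplexes, was at 84.6 against 115.4 CPM (0.733), and at 1.33 times the macrophage level under TMM scaling. Cox4i1, the regulatory subunit with the most complex IV UMIs, was at 233 against 516 CPM (0.451), and Ndufa4, once assigned to complex I and now placed in complex IV, at 54.9 against 268.0 CPM (0.205).

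Complex V spanned nearly the whole range. Atp5l, subunit g of the membrane part, was at 347 CPM in DPCP neutrophils, 406 in macrophages, 489 in dendritic cells and 385 in T cells. Its ratio to macrophages was 0.855, and it was above 1 in control (1.56), under TMM scaling (1.55) and in cells of 3000 to 10000 UMIs (1.05). Atp5e, the epsilon subunit with the most complex V UMIs, was at 245 against 466 CPM (0.527). Atp5g1, Atp5g2 and Atp5g3 encode the same mature protein, subunit c of the rotating ring. Together they were at 86.7 CPM (82.4 to 91.0) in DPCP neutrophils and 533 CPM (510 to 558) in macrophages, a ratio of 0.163 (0.152 to 0.174). The 5 genes of the F1 head and stalk (Atp5a1, Atp5b, Atp5c1, Atp5d and Atp5e) had a ratio of 0.407 (0.392 to 0.422), and the remaining 9 genes one of 0.495 (0.482 to 0.508). Subunit c thus stood below the rest of complex V, also against dendritic cells (0.154) and T cells (0.179).

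**Figure D3:**
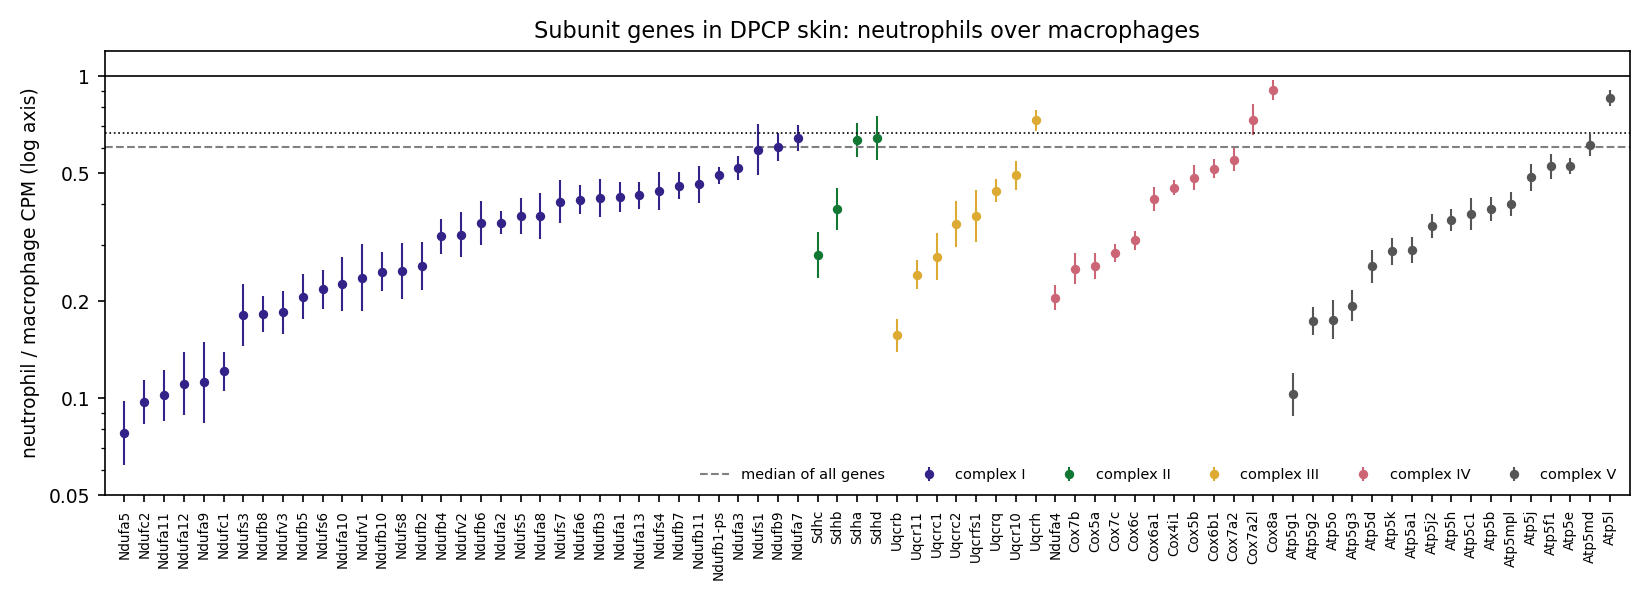
Ratio of DPCP neutrophil to DPCP macrophage CPM (log axis) for 76 of the 77 subunit genes with at least 50 summed UMIs, ordered within each complex, with exact 95% intervals. The dotted line marks 1.5-fold lower and the dashed line the median of all genes, 0.602, and 4 of the plotted genes (Cox8a, Atp5l, Cox7a2l and Uqcrh) lie above the dotted line.

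Other mitochondrial gene lists were also low in DPCP neutrophils, and the glycolysis list was not in sum, though its genes went both ways. The 13 mitochondrially encoded subunit genes, which also belong to complexes I, III, IV and V, were all at least 1.5-fold lower than in DPCP macrophages. Their median log2 ratio was −2.64. They took 0.471% of neutrophil and 2.38% of macrophage UMIs, a ratio of 0.198, below that of the nuclear subunit genes. Cells over 10% mitochondrial UMIs had been removed from all classes. Of the assembly factors 37 of 41 were lower (median −1.81), of mitochondrial ribosomal proteins 72 of 76 (−2.05), of tricarboxylic acid cycle enzymes 12 of 13 (−1.70), and of carriers with cytochrome c 7 of 9 (−1.81). In sum the order differed from that of the medians. The summed ratios were 0.646 for assembly factors, 0.559 for mitochondrial ribosomal proteins and 0.543 for carriers with cytochrome c. That of tricarboxylic acid cycle enzymes was 0.429, and that of the subunit genes 0.403. Of the 15774 assembly factor UMIs in DPCP neutrophils, 9011 were of Cox17, which was at 495 CPM there and 312 CPM in macrophages. Cytosolic ribosomal protein genes, which have no mitochondrial role, were lower to a like degree, 77 of 81 (−1.68, summed ratio 0.371). Of 17 glycolysis genes 4 were higher and 5 lower (−0.20), and their summed level was equal, at 0.354% of neutrophil and 0.352% of macrophage UMIs. Among those higher were the transporter genes Slc16a3, at 419 against 110 CPM, and Slc2a1, at 148 against 86.6 CPM. Among those lower were the enzyme genes Tpi1, at 54.3 against 177 CPM, and Ldha, at 153 against 239 CPM. Among genes of mitochondrial biogenesis, Nrf1, which encodes nuclear respiratory factor 1, was at 131 CPM in neutrophils and 100.4 CPM in macrophages, and Tfam, the mitochondrial DNA transcription factor, at 3.08 and 17.5 CPM.

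Within neutrophils the subunit genes were lower in DPCP than in control skin. Their share of UMIs was 0.739% in control and 0.509% in DPCP, a ratio of summed levels of 0.688 (0.660 to 0.718). Of 77 genes, 30 were at least 1.5-fold lower and 4 at least 1.5-fold higher, beside 35.9% and 17% of all genes. The share of lower genes, 39.0%, was thus near the background, and that of higher genes, 5.19%, was below it. The median log2 ratio was −0.48, beside −0.30 for all genes. The interval lay below 1 for 28 genes, beside 17.7% of all genes, and above 1 for 1, beside 8.54%. The control neutrophils gave a median of 21 UMIs per subunit gene, so single ratios are wide. Ndufa11 was at 30.5 CPM on 9 control UMIs and 10.1 CPM on 184 DPCP UMIs (0.331, 0.171 to 0.736), Ndufb8, of the membrane arm, at 57.7 and 25.1 CPM (0.436, 0.269 to 0.754), and Atp5g3 at 74.6 and 33.7 CPM (0.451, 0.295 to 0.726). Ndufa11 turned to 1.13 when the gate margin was raised to 4. The genes with the most control UMIs lay the same way: Atp5l was at 573 and 347 CPM (0.605, 0.519 to 0.709) and Atp5e at 482 and 245 CPM (0.509, 0.431 to 0.606). Uqcrb, the 1 gene with an interval above 1, rested on 2 control UMIs. Under TMM scaling, which shifted the log2 ratios by 0.39, the summed ratio was 0.899 and 15 genes passed the limit, 9 lower and 6 higher, beside 20.3% and 27.8% of all genes. Among cells of 2000 to 5000 UMIs the summed ratio was 0.762.

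In the same neutrophils the mitochondrially encoded genes were lower too, 12 of 13 past the limit, with a summed ratio of 0.563 (0.541 to 0.586). Glycolysis genes were higher for 11 of 17, with a summed ratio of 1.47 (1.37 to 1.59). Carriers with cytochrome c had a summed ratio of 1.07 (0.933 to 1.23). Slc25a3, the mitochondrial phosphate carrier, stood at 163 CPM in neutrophils of control skin and at 256 CPM in those of DPCP skin, and Cycs, cytochrome c, at 17.0 CPM on 5 UMIs and at 33.9 CPM. Of the 9 genes 3 passed the limit, all higher, and 1 of these was Cyc1, at 3.39 CPM on 1 UMI and at 8.52 CPM. Ucp2, an uncoupling protein, lay the other way at 353 and 291 CPM, and Vdac2, a channel of the outer membrane, at 88.2 and 63.8 CPM. These comparisons share the same cells and are not independent of each other.

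**Figure D4:**
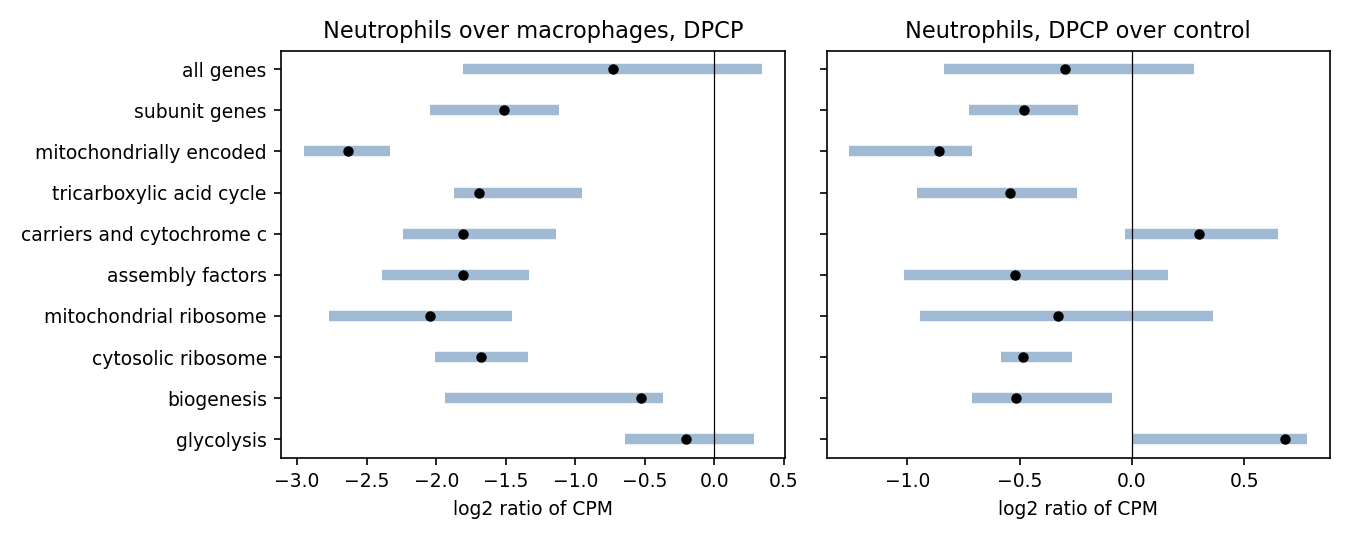
Median (point) and quartiles (bar) of log2 ratios over the genes of each list with at least 50 summed UMIs, for DPCP neutrophils over DPCP macrophages (left) and for DPCP over control within neutrophils (right). The subunit genes have medians of −1.51 and −0.48, the mitochondrially encoded genes lie lowest in both panels, and glycolysis genes lie highest on the right at 0.68.

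DPCP neutrophils also differed among themselves. Split at the medians of Retnlg and of Ccl3 with Ccl4, neither of them a subunit gene, 1297 cells were high for Retnlg only and 1297 for the chemokine genes Ccl3 and Ccl4 only. Median depths were close, at 4239 and 3937 UMIs. Subunit genes took 0.584% (0.578 to 0.590) of UMIs in the Retnlg-high cells and 0.426% (0.420 to 0.431) in the Ccl3 and Ccl4-high cells. The 533 cells above both medians gave 0.477% (0.470 to 0.484). The 533 cells at or below both gave 0.611% (0.600 to 0.622), so a high share was not particular to the Retnlg-high cells. Median depths of these groups were 6229 and 3200 UMIs. In control neutrophils the Retnlg-high cells were not above the Ccl3 and Ccl4-high cells. Shares there were 0.695% (0.642 to 0.751) in 34 Retnlg-high and 0.771% (0.700 to 0.848) in 20 Ccl3 and Ccl4-high cells, whose intervals overlapped. In DPCP skin 30 of 76 genes were at least 1.5-fold lower in the Ccl3 and Ccl4-high cells, beside 20.1% of all genes. The count of higher genes was 1, beside 31.6%. The median log2 ratio was −0.35, beside 0.16 for all genes, and the summed ratio was 0.729 with CPM and 0.628 under TMM scaling. The largest differences, picked after their values were seen, were Ndufb11 at 67.8 and 18.2 CPM (0.269, 0.217 to 0.332), Ndufa8 at 34.5 and 10.6 CPM (0.308), and Cox7a2l at 123 and 42.5 CPM (0.347). The 3 subunit c genes were level, at 83.6 and 83.5 CPM, and Ndufb6 was higher at 19.7 and 29.5 CPM (interval of the ratio 1.19 to 1.90). Glycolysis genes lay the other way, 8 of 17 higher and 1 lower, and the mitochondrially encoded genes had a median log2 ratio of −0.04 but were lower in sum, at 0.519% and 0.434% of UMIs (ratio 0.838, 0.824 to 0.852). Both states lay below every other gated class of DPCP skin.

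In macrophages the subunit genes were higher in DPCP than in control skin, by little. The summed ratio was 1.12 (1.11 to 1.14), with 61 of 77 genes above 1, beside 53.4% of all genes, and 38 with an interval above 1, beside 25% of all genes. Only 2 genes passed 1.5-fold in either direction, beside 26.6% of all genes. Ndufb6 was at 41.8 and 70.2 CPM (1.68, 1.35 to 2.11). Cox7a2l went the other way, at 192 and 115 CPM (0.601, 0.528 to 0.684). Atp5d, the delta subunit of F1, had a ratio of 1.46 and Ndufv1, which binds NADH, one of 1.47. In cells of 3000 to 10000 UMIs the summed ratio was 1.25 and 14 genes passed the limit, 13 of them higher, beside 27.7% of all genes in either direction. The make-up of the class differed between conditions. Macrophages with resident markers (Cd163, Folr2 and Lyve1) went from 106 to 76 cells and had a lower share in DPCP, 1.28% and 1.12%, a summed ratio of 0.873 (0.851 to 0.895). Those with inflammatory markers (Arg1, Mmp12 and Pdpn) numbered 14 in control, with a share of 0.961% (0.907 to 1.02), and 69 in DPCP, with one of 1.38% (1.36 to 1.41). The largest group, cells with neither set of markers, went from 190 to 171 cells and from 1.02% (1.002 to 1.034) to 1.28% (1.26 to 1.29), and their median depth from 6856.5 to 10209 UMIs. The glycolysis list was at 2.02 times the control level in DPCP macrophages.

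Dendritic cells and T cells showed smaller differences in sum. In dendritic cells the summed ratio was 0.991 (0.978 to 1.005), and 2 of 78 genes passed 1.5-fold, both lower, beside 33.1% of all genes in either direction. They were Ndufa6, at 330 and 218 CPM (0.660, 0.597 to 0.728), and Cox6b2, the form of subunit VIb best known from testis, on 82 control and 19 DPCP UMIs (0.234, 0.134 to 0.388). Sdha followed at 111 and 75.3 CPM (0.678). Atp5md, a small subunit of the membrane part, was higher at 204 and 275 CPM (1.35). Dendritic cells with mature markers (Ccr7, Fscn1 and Ccl22) had a lower subunit share than those with type 2 markers (Cd209a and Kmo) in both conditions, 1.25% against 1.43% in control and 1.31% against 1.46% in DPCP. The mature cells numbered 51 in control and 115 in DPCP, the type 2 cells 198 and 56, and the summed DPCP to control ratios were 1.05 and 1.02. In T cells none of 77 genes passed 1.5-fold, beside 19.9% of all genes, and the summed ratio was 0.974 (0.957 to 0.990). It turned above 1 without the cells rich in S100a8 and S100a9 (1.02), with at least 80% of tag counts from the own tag (1.05) and with a gate margin of 4 (1.03). The tag limit kept 80 of the 294 DPCP T cells and all 238 of control. It kept 57 of the 208 DPCP T cells with gamma-delta markers. Sdhd had the highest T cell ratio, 1.44 (1.06 to 1.97), and Ndufb8 the lowest, 0.760 (0.622 to 0.930). The mitochondrially encoded genes were apart from the nuclear genes in T cells, with 10 of 13 at least 1.5-fold lower in DPCP and a summed ratio of 0.616 (0.609 to 0.623). T cells with gamma-delta markers (Trdc and Trdv4) and those with alpha-beta markers (Trac, Cd4 and Cd8a) went opposite ways. In 152 control and 208 DPCP gamma-delta T cells the subunit share was 1.12% and 0.958% (summed ratio 0.855, 0.837 to 0.874), and in 53 and 59 alpha-beta T cells it was 1.29% and 1.60% (1.24, 1.198 to 1.279). The alpha-beta T cells had median depths of 7050 and 9766 UMIs, and their ratio was 1.05 when clusters replaced the gates.

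**Figure D5:**
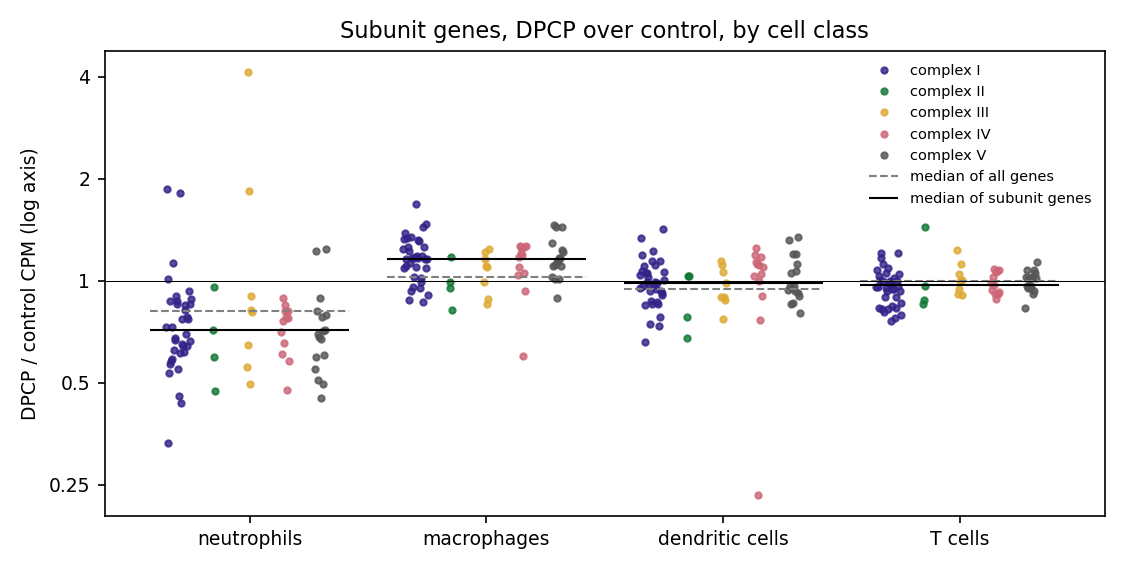
DPCP over control CPM (log axis) for each subunit gene with at least 50 summed UMIs in the 4 gated classes, coloured by complex, with the median of subunit genes (solid) and of all genes (dashed). Neutrophil points spread widely around a median of 0.716, macrophage points lie mostly above 1, and the single low point in dendritic cells is Cox6b2.

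Over all kept cells the summed level in DPCP was 0.747 times that of control. Of 80 genes, 18 were at least 1.5-fold lower, beside 25.6% of all genes, and 1 was higher, beside 21%. Gated neutrophils made up 48.2% of kept DPCP cells and 2.05% of kept control cells, and they gave 34.3% of all UMIs but 16.4% of subunit UMIs in DPCP.

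Several complex IV subunits have tissue forms, most of them known from muscle, lung or testis, and these were sparse. Cox6a2, the heart and muscle form of subunit VIa, was the 1 gene higher over all cells, with 72 control and 248 DPCP UMIs among kept cells (1.39 and 4.67 CPM, ratio 3.36, 2.58 to 4.43). Most of its UMIs lay in few cells. Of its 321 UMIs, 299 (93.1%) lay in 75 barcodes with at least 2 UMIs of Siglech, a gene known from plasmacytoid dendritic cells, a criterion set after the values were seen. There it was at 205 CPM (157 to 264) in the 28 control barcodes and 406 CPM (357 to 461) in the 47 DPCP barcodes, beside 0.0549 CPM in DPCP neutrophils. Cox4i2, the form of subunit IV known to be induced by low oxygen, fell just under the minimum for members. Of its 47 UMIs, 31 were in DPCP neutrophils, in 28 cells (1.70 CPM, 1.16 to 2.42), and 10 in DPCP cells outside every gate. Control neutrophils had 0, with an upper limit of 12.5 CPM at their depth. Gated DPCP macrophages and T cells had 0, with upper limits of 1.02 and 1.37 CPM, and dendritic cells had 1. Cox7a1, the heart and muscle form of subunit VIIa, gave 0.495 CPM in DPCP neutrophils and 4.72 CPM in DPCP macrophages.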

How the data were processed

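The authors deposited a matrix of raw UMI counts per gene and barcode, made with Cell Ranger 7.0.0 on mm10 per the file headers. The submitters' processing notes name Cell Ranger 6.1.1 and Seurat 4.0.1. Each barcode's suffix gave its condition, and no barcode sequence was shared between conditions. The members, lists and alternatives were chosen with earlier results of these data known.

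Cells with under 200 genes or over 10% mitochondrial UMIs were left out. Doublets were not removed, and leaving out the 5% of cells with the highest doublet scores was an alternative. The counts of each class were added up within a condition and divided by the class total (CPM). Levels carry exact Poisson intervals and ratios exact conditional binomial intervals, at 95%. A gene was counted as lower or higher at 1.5-fold with at least 50 summed UMIs. Named genes were the 3 highest and 3 lowest ratios per main comparison with an interval excluding 1, the member with most UMIs of each complex and isoform sets, and others are described by their role. A level of 0 was given a floor of 3 counts. Reads of members with pseudogene copies may be split or lost by the authors' counting, which was not tested. The ratio and its interval were tested on simulated data with counting error only, which cannot speak to differences between cells or animals. Python 3.11.15, scipy 1.17.1, scanpy 1.11.5, and edgeR 4.0.16 in R 4.3.3 (for TMM factors) were used. Promoter windows are from RefSeq. The values of 1 complex I gene are not reported here on their own, though counts and sums over the members include it. The neutrophil states, the comparison of finer groups of cells between conditions, the subunit groupings within complexes and the window of 3000 to 10000 UMIs were added after seeing the data.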

Additional observations from a re-analysis of the deposited data

Results flagged for a closer look

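The ratio of summed subunit levels, DPCP over control, lay on opposite sides of 1 in different gated classes. It was 0.688 in neutrophils and 0.974 in T cells, and 1.12 in macrophages, each with a counting interval that excludes 1, but the T cell ratio turned to between 1.02 and 1.05 under 3 of the alternatives. Within T cells it was 0.855 for gamma-delta and 1.24 for alpha-beta cells. With 1 tagged sample per condition the differences between classes were not tested.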

How the results depend on the processing

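No paired analysis was possible because each condition has 1 tagged sample. Of 171 alternative values of the 12 counts of subunit genes, 146 stayed within 1.5 times of the reported count and 25 moved. This sorting compared the size of each count and could not record a change of direction. TMM scaling gave 42 genes lower in DPCP neutrophils than in macrophages and 25 than in T cells, beside 32.7% and 31.7% of all genes. It gave 15 changed genes in neutrophils and 11 in all kept cells, beside 48.1% and 44.1% of all genes. In cells of 2000 to 5000 UMIs, 1 of 20 genes was lower and 7 were higher in control neutrophils than in macrophages. Their median log2 ratio was 0.41, and the summed ratio of all 80 genes was 1.07. In the same cells 13 of 31 genes were lower in control neutrophils than in T cells, beside 37.0% of all genes. There 7 of 41 T cell and 48 of 77 all-cell genes had changed, beside 27.4% and 68.0% of all genes. That window left under 50 DPCP macrophages and dendritic cells. A minimum of 200 UMIs gave 29 of 48 genes lower in control neutrophils than in T cells and 1 changed in dendritic cells, and a minimum of 10 gave 4 there. Genes changed in macrophages numbered 11 with a gate margin of 4, 0 with clusters in place of gates, 7 with the mean over cells of CPM, 4 without the highest doublet scores, 4 without cells rich in S100a8 and S100a9, and 14 in cells of 3000 to 10000 UMIs. That last window gave 8 in dendritic cells, 4 in T cells and 52 in all kept cells, beside 37.8%, 21.4% and 61.7% of all genes. Clusters gave 5 in dendritic cells, and the mean over cells gave 50 in all kept cells. Outside TMM scaling and the depth windows, the share over all genes is not given here. In T cells 1 changed without the highest doublet scores, 1 without cells rich in S100a8 and S100a9, and 1 with at least 80% own tag, and the summed T cell ratio was 1.02 without the S100 cells, 1.05 with 80% own tag and 1.03 with a gate margin of 4.

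Of 588 alternative values of named genes 17 reversed. Under TMM scaling the ratio of neutrophils to macrophages was 1.55 for Atp5l, 1.33 for Cox7a2l and 1.64 for Cox8a, to dendritic cells 1.22 for Cox8a, 1.31 for Sdha and 1.16 for Sdhd, and to T cells 1.90 for Atp5l, 1.70 for Ndufb9 and 1.69 for Sdhd, and Cox8a in neutrophils, DPCP over control, was 1.02. In cells of 3000 to 10000 UMIs Atp5l was 1.05 and Cox8a 1.11 against macrophages, and Sdha 1.03 against dendritic cells. With a gate margin of 4, Ndufa11 was 1.13 in neutrophils and Ndufa6 1.02 in T cells, and with clusters Sdha was 1.09 in dendritic cells and Uqcr10 0.98 in T cells. Except where scaling or depth was itself the alternative, the cause was not tested. Depth limits the control neutrophils most, at 102 cells.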
